A study of Mus musculus with 6 samples.

Results

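A set of 10 genes that mark macrophages and other mature myeloid cells was followed in multipotent progenitors of mouse bone marrow, with and without the latexin gene. They are the complement chains C1qa, C1qb and C1qc, the uptake receptors Fcgr1, Mrc1 and Marco, the effector proteins Lyz1, Lyz2 and Mpeg1, and the dendritic cell receptor Siglech. The genes were taken by name from the platform's annotation. All 10 were on the array, each with 1 feature (a probe set summarised to 1 value), out of 19938 genes that have a feature of their own. Affymetrix MoGene 1.0 ST arrays were hybridised with RNA of 3 wild-type samples and 3 samples labelled Lxn-/-. Exons 2 to 4 of latexin (Lxn), the gene of a carboxypeptidase inhibitor, are deleted in the latter, per the labels. All mice were C57BL/6, labelled female and 8 to 12 weeks old, and received no treatment that the labels name. Every sample was a separate pool of about 100000 cells from 10 to 20 mice, sorted by the gate Lin-Sca1+c-Kit+Flt2+CD34+. The series text calls these cells MPPs in its account of the sort and LT-HSCs in its account of the pools.

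The genes of the sort were bright in both groups, with Flt3 assumed to be meant where the gate names Flt2. Kit, the stem cell factor receptor, averaged 12.13 ± 0.07 (SD, n = 3) on the log2 scale in wild type and 11.91 ± 0.38 in the Lxn-/- group. Flt3, the FLT3 ligand receptor, averaged 12.71 ± 0.04 and 12.68 ± 0.20, and Cd34, a sialomucin of progenitors, 13.41 ± 0.05 and 13.40 ± 0.07. No feature named Ly6a (Sca1) was measured. The Lxn feature read 8.56, 8.70 and 8.58 in wild type and 8.03, 8.53 and 8.61 in the Lxn-/- group, a log2 difference of -0.22 (SE 0.15, adjusted p = 0.459 by limma). The sources used here do not say whether its probes lie in the deleted exons, so it does not check the genotype. Arrays 1 and 3 labelled Lxn-/- went against their sex label. Xist, the X-inactivation RNA, read 6.86 and 5.85 there against 13.13 to 13.23 in the other 4 arrays, and the Y-linked Eif2s3y read 8.57 and 9.36 against 3.68 to 3.97. Values of the members and lists with Lxn-/- array 2 alone against wild type, where the spread is that of the wild-type arrays, are therefore given beside the results, and "Lxn-/-" means the label throughout.

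Macrophages of the bone marrow nurse developing red cells, clear dying cells and recycle iron, and they carry high levels of scavenger and phagocytic receptors. C1q, the recognition molecule that starts the classical complement pathway, is assembled from the products of C1qa, C1qb and C1qc, which macrophages make in large amounts. Monocytes and their progenitors switch on other genes earlier, among them Lyz2 and Mpeg1. Many of these genes are transcribed under the ETS-family factor Spi1, which multipotent progenitors also express.

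The sequences before the gene starts are shown for the members the results turn on, the C1q chains, Mrc1 and Mpeg1, and for the lysozymes, whose neighbouring copies are alike. RefSeq promoter sequences (build GRCm38.p6) were found for 9 of the 10 genes, all but C1qa. The windows are the 250 bases before the gene start, printed 5′ to 3′ on the strand of the gene: chr4:136886201-136886450 (minus strand) for C1qb, chr4:136892915-136893164 (minus) for C1qc, chr2:14229164-14229413 (plus) for Mrc1, chr10:117292869-117293118 (minus) for Lyz1, chr10:117282273-117282522 (minus) for Lyz2 and chr19:12460520-12460769 (plus) for Mpeg1. Capitals mark the ETS-type word AGGAAGT, searched on both strands. In every printed match it is read on the strand opposite to the gene, as its reverse complement.
C1qb: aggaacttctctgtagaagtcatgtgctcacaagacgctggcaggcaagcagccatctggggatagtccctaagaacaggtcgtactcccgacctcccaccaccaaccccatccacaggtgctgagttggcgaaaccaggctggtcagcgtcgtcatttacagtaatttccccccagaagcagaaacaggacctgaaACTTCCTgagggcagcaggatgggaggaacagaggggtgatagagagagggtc
C1qc: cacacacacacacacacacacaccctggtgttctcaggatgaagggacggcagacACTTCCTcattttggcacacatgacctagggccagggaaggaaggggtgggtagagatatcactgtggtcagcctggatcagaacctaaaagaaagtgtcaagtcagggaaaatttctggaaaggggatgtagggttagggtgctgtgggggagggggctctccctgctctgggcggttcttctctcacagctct
Mrc1: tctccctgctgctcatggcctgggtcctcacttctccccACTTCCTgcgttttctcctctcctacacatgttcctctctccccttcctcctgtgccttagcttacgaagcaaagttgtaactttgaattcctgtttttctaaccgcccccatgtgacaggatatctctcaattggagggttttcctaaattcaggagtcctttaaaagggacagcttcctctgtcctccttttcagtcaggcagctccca
Lyz1: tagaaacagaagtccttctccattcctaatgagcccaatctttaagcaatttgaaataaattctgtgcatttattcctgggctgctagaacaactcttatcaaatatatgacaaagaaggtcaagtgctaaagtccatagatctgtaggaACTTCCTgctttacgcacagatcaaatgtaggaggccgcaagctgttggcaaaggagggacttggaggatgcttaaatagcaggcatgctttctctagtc
Lyz2: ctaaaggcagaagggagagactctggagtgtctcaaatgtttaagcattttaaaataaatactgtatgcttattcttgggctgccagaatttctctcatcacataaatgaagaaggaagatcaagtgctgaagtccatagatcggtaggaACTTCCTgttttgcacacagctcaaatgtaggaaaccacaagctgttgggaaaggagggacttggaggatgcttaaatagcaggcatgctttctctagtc
Mpeg1: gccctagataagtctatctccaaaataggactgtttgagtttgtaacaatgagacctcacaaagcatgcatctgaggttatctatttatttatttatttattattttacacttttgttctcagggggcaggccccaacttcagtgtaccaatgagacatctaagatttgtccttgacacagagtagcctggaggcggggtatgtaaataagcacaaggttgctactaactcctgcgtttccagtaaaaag
The word AGGAAGT was present in 6 of the 9 windows, at position -53 in C1qb, -195 in C1qc, -61 in Fcgr1, -211 in Mrc1 and -100 in both lysozymes, counted from the gene start to the first base of the match. Of 32817 mouse promoter windows of this length, 7.69% held it. The windows of Mpeg1, Marco and Siglech did not contain these letters. A shorter word, GAGGAA, was present in 5 of the 9 windows (C1qb, C1qc, Fcgr1, Mrc1 and Marco) against 23.3% of all windows, and its matches in C1qc and Fcgr1 overlapped the AGGAAGT match. The interferon-response word GGAANNGAA was found in Marco alone, against 6.99% of all windows. The Maf-type word TGCTGAC was in 0 of the 9 windows, against 3.81% of all. These matches are descriptions of letters, not binding sites, and the words were chosen with the sequences in view. The Lyz1 and Lyz2 windows matched at 200 of 252 aligned positions (79.4%), and their last 50 bases before the start were identical, so the 2 lysozyme matches are not separate observations. C1qb and C1qc matched at 43.5% of aligned positions.

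The C1q chains had lower mean values in the Lxn-/- group, with C1qb the furthest apart, but none passed adjustment over all genes. C1qb, the B chain, read 7.93, 8.35 and 8.17 in wild-type arrays 1, 2 and 3 and 7.58, 7.94 and 7.46 in Lxn-/- arrays 1, 2 and 3. Arrays 1 and 3 of the Lxn-/- group were below every wild-type array, and array 2 was just above the lowest of them. The means were 8.15 ± 0.21 and 7.66 ± 0.25 (SD, n = 3 each), a log2 difference of -0.50 (SE 0.15, 95% interval -0.83 to -0.16), or 1.41-fold lower. Its adjusted p by limma was 0.340, and it ranked 549 of the 23410 tested features by unadjusted p.

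C1qa, the A chain, read 7.40, 7.68 and 7.63 in wild type and 7.41, 7.34 and 7.15 in the Lxn-/- group. The lowest wild-type array and the highest Lxn-/- array, both number 1, were level. The log2 difference was -0.27 (SE 0.11, 95% interval -0.52 to -0.02, adjusted p = 0.341), or 1.21-fold lower. C1qc, the C chain, read 7.18, 7.48 and 7.15 against 6.89, 7.32 and 6.80. Array 2 was the highest of its group in both genotypes, and Lxn-/- array 2 lay above wild-type arrays 1 and 3. The difference was -0.27 (SE 0.15, 95% interval -0.61 to 0.07, adjusted p = 0.399).

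**Figure D1:**
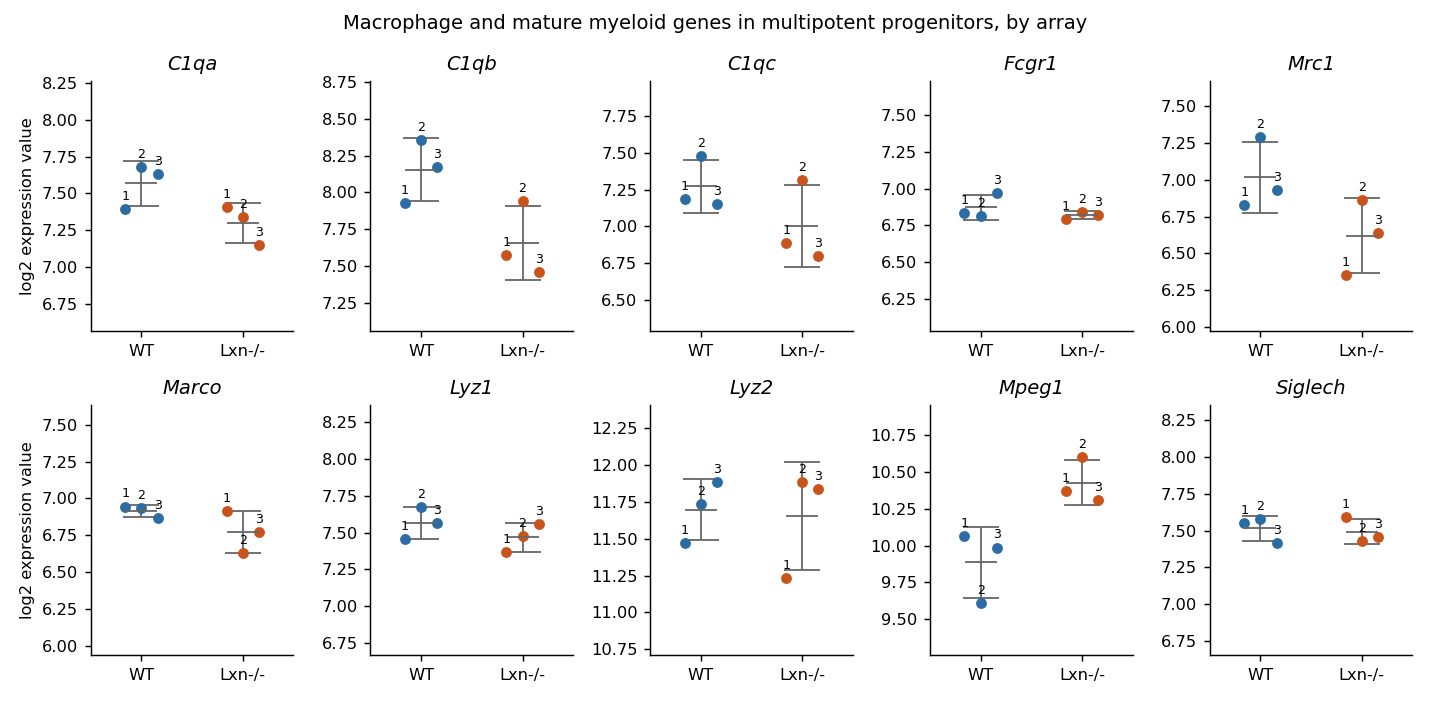
The log2 value of each of the 10 genes in every array, with array numbers beside the dots and bars for the group mean ± SD (n = 3); every panel spans the same height on the log2 scale. Mpeg1 is the panel in which all Lxn-/- arrays (10.31 to 10.60) lie above all wild-type arrays (9.61 to 10.06), and C1qb and Mrc1 have Lxn-/- arrays 1 and 3 below the wild-type arrays.

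Among the uptake receptors, Mrc1 had the lowest mean relative to wild type over all arrays, and Marco the lowest value in Lxn-/- array 2 alone. Mrc1, the macrophage mannose receptor, read 6.83, 7.29 and 6.93 in wild type and 6.35, 6.87 and 6.64 in the Lxn-/- group. Arrays 1 and 3 of the Lxn-/- group were below all wild-type arrays, and array 2 lay between wild-type arrays 1 and 3. The log2 difference was -0.40 (SE 0.16, 95% interval -0.75 to -0.04, adjusted p = 0.340), or 1.32-fold lower.

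Fcgr1, the high-affinity receptor for IgG, read 6.83, 6.82 and 6.97 against 6.79, 6.84 and 6.82. These values overlapped, with a difference of -0.05 (SE 0.09, 95% interval -0.25 to 0.14, adjusted p = 0.750). Fcgr1 lies on chromosome 3, as Lxn does. Marco, a class A scavenger receptor that binds bacteria, read 6.94, 6.93 and 6.86 against 6.91, 6.63 and 6.77. Lxn-/- array 1 was within the wild-type range and arrays 2 and 3 were below it, and the difference was -0.14 (SE 0.10, 95% interval -0.37 to 0.08, adjusted p = 0.461). In Lxn-/- array 2 alone Marco was -0.29 (SE 0.12) and Mrc1 -0.15 (SE 0.18). Marco's difference ranged from -0.22 without Lxn-/- array 1 to -0.07 without Lxn-/- array 2, and was -0.01 after quantile normalization again.

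The effector proteins did not share a direction. Mpeg1, which encodes the pore-forming perforin-2 of phagocytes, was the member with the clearest separation: 10.06, 9.61 and 9.99 in wild type against 10.37, 10.60 and 10.31 in the Lxn-/- group. All 3 Lxn-/- arrays were above all 3 wild-type arrays. The means were 9.89 ± 0.24 and 10.43 ± 0.15 (SD, n = 3 each), a log2 difference of 0.54 (SE 0.14, 95% interval 0.23 to 0.85), or 1.46-fold higher. The adjusted p was 0.340, so it did not pass the threshold of 0.05, and it ranked 149 of all tested features by unadjusted p.

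Lysozymes, the enzymes that cut bacterial cell walls, differed by less than the spread of the arrays. Lyz2, the myeloid lysozyme, read 11.47, 11.74 and 11.89 in wild type and 11.23, 11.89 and 11.84 in the Lxn-/- group. Lxn-/- array 1 was the lowest of the 6 arrays, and arrays 2 and 3 were level with the highest wild-type array. The difference was -0.04 (SE 0.18, 95% interval -0.45 to 0.36, adjusted p = 0.909). Its sign turned between alternatives, from -0.16 without Lxn-/- array 2 to 0.17 without Lxn-/- array 1. Lyz1, the lysozyme of Paneth cells, read 7.45, 7.67 and 7.57 against 7.37, 7.48 and 7.56, a difference of -0.10 (SE 0.10, 95% interval -0.32 to 0.13, adjusted p = 0.611). Near-identical copies can share signal on an array, so the split between Lyz1 and Lyz2 is uncertain, and the probes were not examined here.

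Siglech, a lectin-type receptor of plasmacytoid dendritic cells and some resident macrophages, read 7.55, 7.58 and 7.42 in wild type and 7.59, 7.43 and 7.46 in the Lxn-/- group. The values overlapped, and the difference was -0.02 (SE 0.09, 95% interval -0.23 to 0.19, adjusted p = 0.914).

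**Figure D2:**
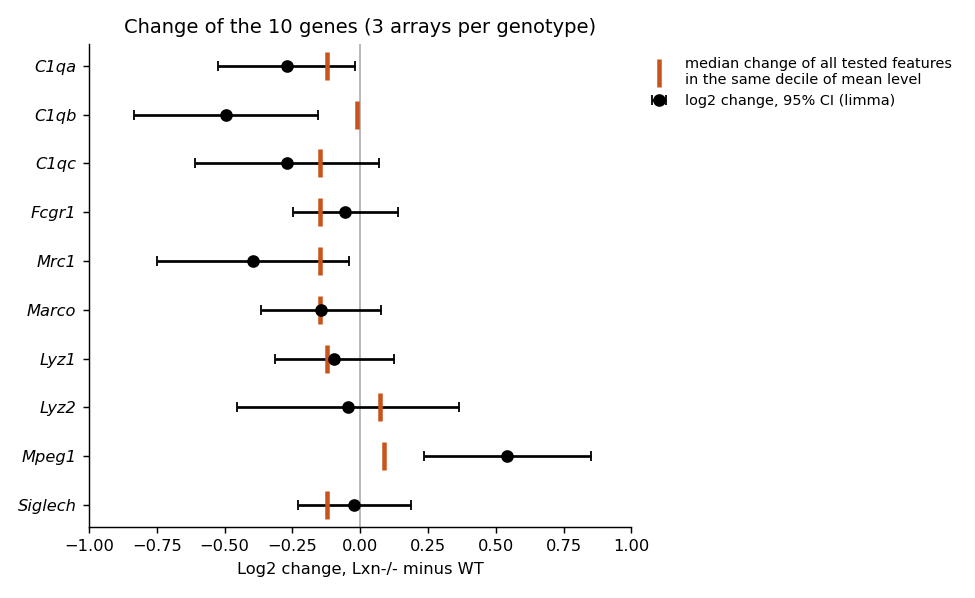
Log2 difference (Lxn-/- minus wild type) of the 10 genes with its 95% interval from limma; the orange tick is the median difference of all tested features in the same decile of mean level. C1qb (-0.50) and Mpeg1 (0.54) lie furthest from 0 in opposite directions, and 4 of the 10 intervals exclude 0 before adjustment for the number of features.

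Across the 23410 tested features, limma called 0% at an adjusted p of 0.05, with a smallest adjusted p of 0.340, and 3346 features had an unadjusted p under 0.05. Of the 10 members, 0 passed. Lower values with an unadjusted p under 0.05 were found for 3 members (C1qa, C1qb and Mrc1), where 9.23% of all features had one. Higher values were found for 1 (Mpeg1), where 5.06% did. No member had all Lxn-/- arrays below all wild-type arrays, against 13% of all features; 1 member had all of them above, against 8.54%. Means were lower in 9 members and higher in 1, and the median difference over the 10 was -0.12, beside -0.04 over all features, of which 57.8% were lower.

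Over all features the difference varied with the level of the feature. Among features in deciles 1 to 5 of mean level the median difference was between -0.11 and -0.15, and in deciles 7 to 10 it was between 0.07 and 0.09. Olfactory receptor genes, which blood progenitors are not known to express, gave a measure of signal without expression: over 1027 features their median level was 5.94 and their 95th percentile 7.21, with a median difference of -0.18 and 92.7% lower. C1qa, C1qb, Lyz1, Lyz2, Mpeg1 and Siglech averaged above that percentile, and C1qc, Fcgr1, Mrc1 and Marco did not. Set against the median of its own decile, a comparison chosen after seeing the data, the C1qb difference was -0.49, Mrc1 -0.25, C1qa -0.15 and Mpeg1 0.46.

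Leaving out arrays moved the members unequally. Mpeg1 had an unadjusted p under 0.05 in all 15 fits, with differences from 0.40 to 0.72, and was 0.72 higher (SE 0.18) in Lxn-/- array 2 alone, the Lxn-/- array that matched its sex label. C1qb had one in 14 of 15 fits. Its difference was -0.64 without Lxn-/- array 2 and -0.21 (SE 0.17) with that array alone. Mrc1 was -0.52 without Lxn-/- array 2 and -0.15 (SE 0.18) with it alone, and had an unadjusted p under 0.05 in 7 of 14 fits. Without Lxn-/- array 1 Mrc1 was -0.26. With array weights, where that array had the lowest weight (0.36), Mrc1 was -0.24. C1qa had an unadjusted p under 0.05 in 5 of 14 fits, the fewest of the 4 members that had one in the fit to all arrays. Its difference was -0.29 without Lxn-/- array 2 and -0.23 (SE 0.15) with it alone. For C1qc the pair was -0.43 and 0.05. With Lxn-/- array 2 alone, Fcgr1 was -0.03 (SE 0.13), Lyz1 -0.08 (SE 0.14), Lyz2 0.19 (SE 0.17) and Siglech -0.08 (SE 0.13). There Mpeg1 and Marco (-0.29, SE 0.12) differed more from wild type than in the fit to all arrays, and C1qa, C1qb and Mrc1 less. Marco averaged 6.84, below the olfactory 95th percentile of 7.21. Olfactory medians, a measure of signal without expression, were 6.11, 5.99 and 5.98 in the wild-type arrays. In Lxn-/- arrays 1, 2 and 3 they were 6.01, 5.72 and 5.77, also lowest in array 2. Because each value comes from the bulk RNA of a pool, fewer cells of a type and less RNA per cell cannot be told apart.

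**Figure D3:**
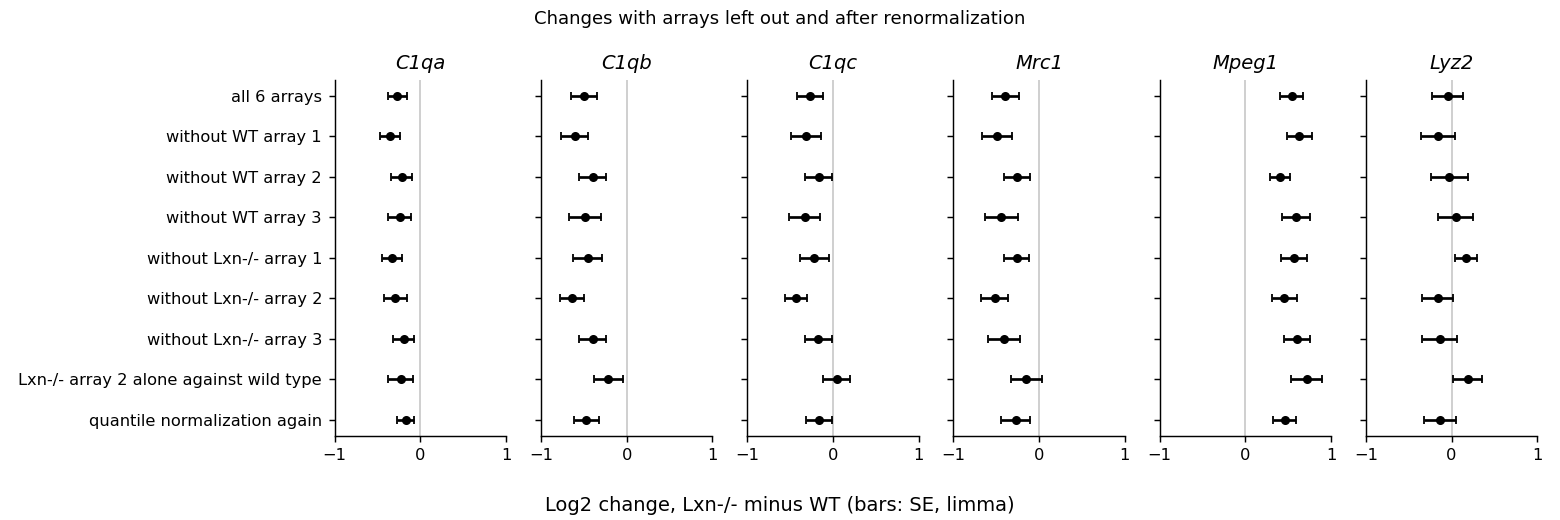
Log2 differences ± SE of C1qa, C1qb, C1qc, Mrc1, Mpeg1 and Lyz2 in the fit to all 6 arrays, with each array left out, with Lxn-/- array 2 alone, and after quantile normalization again. Mpeg1 stays above 0 (0.40 to 0.72) and C1qb below it (-0.64 to -0.21) throughout, and Lyz2 crosses 0.

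Markers of resident bone marrow macrophages had mostly lower means in the Lxn-/- group. Of 20 markers, all measured, 18 were lower and 2 higher, with a median difference of -0.23 beside -0.04 for all features. At an unadjusted p under 0.05 by limma, 9 were lower and 2 higher, beside 9.23% and 5.06% of all features. Of the 20 markers, 0 passed adjustment. Hmox1, the haem-degrading enzyme, read 8.76, 9.01 and 9.11 in wild type against 7.97, 8.70 and 8.20, a difference of -0.67 (SE 0.18). Cd5l, a secreted scavenger-receptor protein of macrophages, was -0.53 (SE 0.14), but at a mean level of 6.05 it was close to the olfactory median of 5.94. Apoe, a lipid carrier, was -0.53 (SE 0.18), Slc40a1, the iron exporter, -0.54 (SE 0.22) and Vcam1, an adhesion molecule, -0.52 (SE 0.18). Siglec1, Axl, Fcna and Trem2 completed the 9, with differences from -0.46 to -0.26. The 2 higher genes were Csf1r, the receptor for macrophage colony-stimulating factor, at 0.50 (SE 0.14), and Cd68, a lysosomal glycoprotein, at 0.32 (SE 0.12).

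Only 10 of the 20 resident markers averaged above the olfactory 95th percentile, and Adgre1, Cd163, Cd5l, Timd4, Vsig4 and Spic were among the 10 below it. The log2 of their summed level was 12.44 to 12.68 in wild type and 12.21 to 12.50 in the Lxn-/- group, and these ranges overlapped. Against the median of each gene's decile, the list's median was -0.10. The count of 9 fell to 3 without wild-type array 2, to 4 without Lxn-/- array 1 and to 5 without Lxn-/- array 3, and was 10 without Lxn-/- array 2. Over all features, in either direction, the count of 3346 became 1904, 5541, 1628 and 2651 in those fits. With Lxn-/- array 2 alone 17 of the 20 were lower (median -0.13). Hmox1 was -0.26 (SE 0.16) there, Siglec1 -0.46 (SE 0.15) and Axl -0.07 (SE 0.19). The share of all features lower in that fit is not given here. Signal without expression was also lower in that array, with an olfactory median of 5.72 against 5.98 to 6.11 in wild type. Without that array Hmox1 passed adjustment (-0.88, adjusted p = 0.0127 by limma), as did Mrc2, an endocytic collagen receptor of the mannose receptor family (-0.86, adjusted p = 0.00883). Cox6a2, a cytochrome oxidase subunit listed here with the plasmacytoid dendritic cell markers, passed as well (0.71, adjusted p = 0.0158). No member of the 10 did. Xist (-6.83, adjusted p = 5.87e-08) and the Y-linked Eif2s3y (5.13), Uty (4.17) and Kdm5d (3.05) passed too. Both Lxn-/- arrays of that fit are those that went against their sex label, so genotype and sex-linked signal cannot be told apart in it. In array 2 alone Mrc2 was -0.03 (SE 0.16) and Cox6a2 0.02 (SE 0.12).

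**Figure D4:**
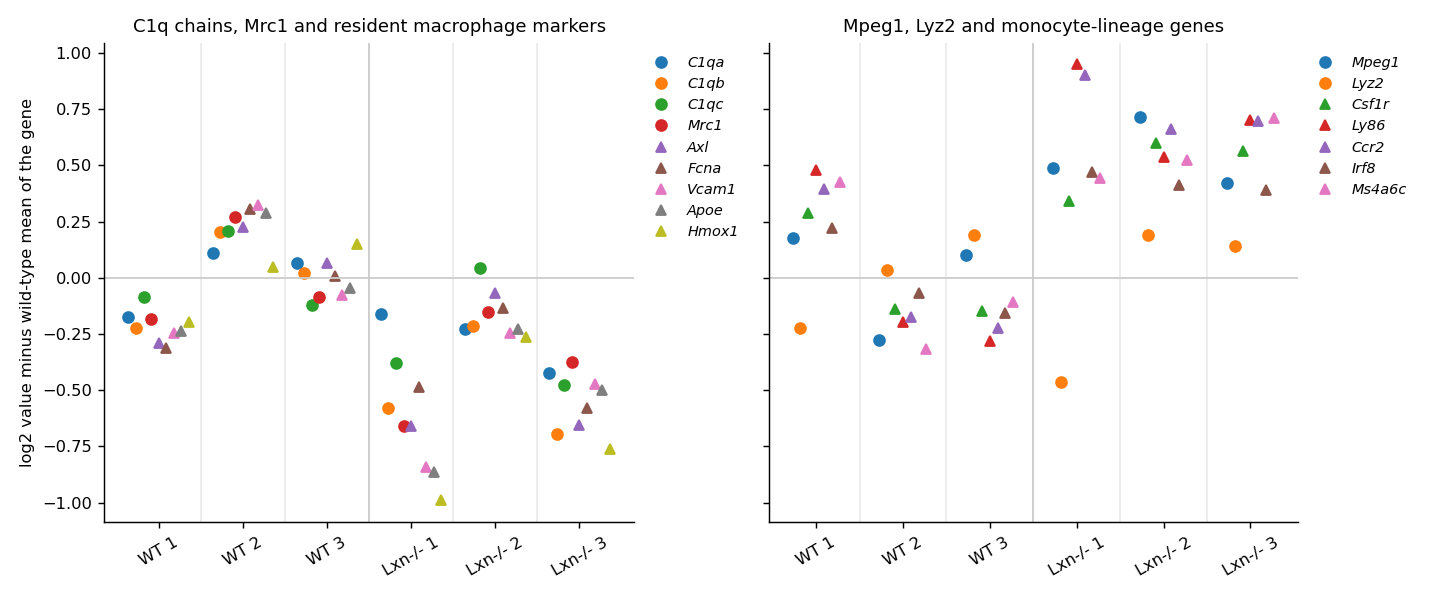
Log2 value of each gene minus its wild-type mean, by array, for the C1q chains, Mrc1 and resident macrophage markers (left) and for Mpeg1, Lyz2 and monocyte-lineage genes (right); circles are members, triangles other genes. On the left C1qb is low in Lxn-/- arrays 1 and 3 (-0.58 and -0.70) and closer to 0 in array 2 (-0.21), whereas C1qa is closest to 0 in array 1 (-0.16, against -0.23 in array 2). On the right all Lxn-/- arrays are above 0 for every gene but Lyz2 in array 1. The triangle genes were picked with their differences in view. Genes of the same lists that went the other way are not shown, among them the resident marker Cd68 (0.32) and the monocyte markers Fcgr3 (-0.27) and Clec4a3 (-0.15). Csf1r, on the right, is also a resident marker.

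Monocyte markers leaned the other way, as Mpeg1 did. Of 18 markers 17 were measured, 13 were higher and 4 lower, and the median difference was 0.17, or 0.09 relative to the level deciles. Higher values with an unadjusted p under 0.05 were found for 4 of them and lower values for 0, and 0 passed adjustment. Of all features 5.06% were higher and 9.23% lower at that threshold. Ccr2, the chemokine receptor that takes monocytes out of the marrow, read 8.84, 8.27 and 8.22 in wild type against 9.34, 9.10 and 9.14, a difference of 0.75 (SE 0.16). Ly86, an accessory protein of Toll-like receptor signalling, was 0.73 (SE 0.20) and Ms4a6c, a tetraspan membrane protein, 0.56 (SE 0.18), with Csf1r the fourth. In Ccr2, Ly86, Ms4a6c and Csf1r all Lxn-/- arrays were above all wild-type arrays, as in 8.54% of all features. In Clec4a3 (-0.15) all of them were below, as in 13% of all features. Fcgr3 (-0.27), Fn1 and Itgam were the other markers with lower means. The log2 of the summed level was 13.16 to 13.48 in wild type and 13.55 to 13.73 in the Lxn-/- group. The count of 4 was 7 without Lxn-/- array 1, where the count over all features, in either direction, also rose from 3346 to 5541. In Lxn-/- array 2 alone the list's median was 0.31, with Ccr2 at 0.66 (SE 0.23), Csf1r at 0.60 (SE 0.18), Ly86 at 0.54 (SE 0.26) and Ms4a6c at 0.52 (SE 0.25). Neither the part of monocyte-committed cells nor that of resident macrophages in the member values was tested.

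Regulators of the mature myeloid fates were split. Of 22 measured, 13 were higher and 9 lower (median 0.07), with 4 higher at an unadjusted p under 0.05: Id2, an inhibitor of helix-loop-helix factors, at 0.49 (SE 0.11), Irf8, which drives monocytes and dendritic cells, at 0.42 (SE 0.11), Csf1r, and Tcf4, the E protein of plasmacytoid dendritic cells, at 0.20 (SE 0.08). Spi1 itself was 0.09 higher (SE 0.08). None was lower at that threshold, at which 5.06% of all features were higher and 9.23% lower. In Lxn-/- array 2 alone the median was 0.06, with Irf8 at 0.41 (SE 0.16) and Id2 at 0.28 (SE 0.13).

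Lists of genes that work with the members had medians between -0.12 and 0.02, beside -0.04 over all features. The C1q partners and classical complement proteins had 11 lower and 10 higher of 21 measured (median -0.01), with 2 lower and 1 higher at an unadjusted p under 0.05; the 3 smallest p-values were those of C1s1, the C1 protease, at -0.36, Itgax, an integrin chain that binds complement fragments, at 0.26, and Cfb, an alternative-pathway protease, at -0.22. Fc gamma receptors and their signalling proteins had 2 lower and 7 higher of 9 (median 0.02); the inhibitory receptor Fcgr2b was 0.41 higher (SE 0.12), while Fcgr3 read -0.27 and Plcg2, a phospholipase of this signalling path, 0.10. Scavenger receptors and endocytic lectins had 18 lower and 7 higher of 25 (median -0.06), with Scara3 at -0.37, Clec10a, a galactose-type lectin, at 0.39, and Mrc2, the closest relative of Mrc1 in the list, at -0.59 (SE 0.21). Other pore-forming proteins had 6 lower and 3 higher of 9 (median -0.04), led by the complement proteins C7 at -0.31, C6 at -0.21 and C8a at -0.19. The Siglec family and its adaptors had 8 lower and 2 higher of 10 (median -0.12), led by Siglec1 at -0.37, Siglec15 at -0.31 and Siglece at 0.32. At an unadjusted p under 0.05 by limma the scavenger list had 4 lower and 1 higher, and the pore-forming and Siglec lists each 2 lower and 0 higher. The Fc gamma list had 0 lower and 1 higher. Of all features 9.23% were lower and 5.06% higher at that threshold. Relative to the level deciles the medians were -0.01 for the scavenger list, -0.02 for the pore-forming list and -0.06 for the Siglec list. None of these lists had a gene past adjustment in the fit to all arrays. In Lxn-/- array 2 alone the medians were 0.09 for the complement list, 0.07 for the Fc gamma list, -0.06 for the scavenger list, -0.23 for the pore-forming list and -0.07 for the Siglec list.

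**Figure D5:**
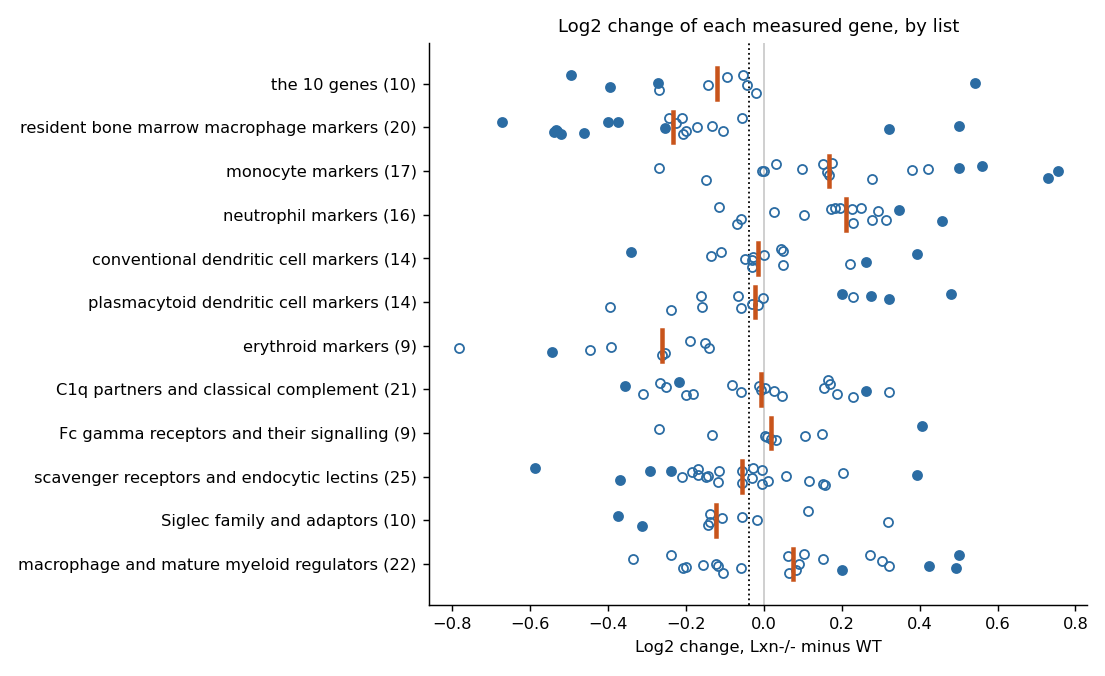
Log2 difference (Lxn-/- minus wild type) of each measured gene in each list; filled dots have an unadjusted p under 0.05, the orange bar is the list's median and the dotted line the median of all tested features (-0.04). Resident macrophage markers (median -0.23) and erythroid markers (-0.26) lie lowest, and monocyte (0.17) and neutrophil markers (0.21) highest.

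Markers of other cell types are given beside these values. Erythroid markers had lower means in 9 of 9 measured genes (median -0.26, and -0.18 relative to the level deciles), with Ermap, a red-cell membrane protein, at -0.54, the carbonic anhydrase Car1 at -0.78 and Klf1, the erythroid master regulator, at -0.26. Ermap alone had an unadjusted p under 0.05, beside 9.23% of all features that were lower at that threshold. The log2 of their summed level was 12.71 to 13.28 in wild type and 11.98 to 12.84 in the Lxn-/- group. By array, the erythroid medians relative to each gene's wild-type mean were -0.16, 0.28 and -0.16 in wild type and -0.33, -0.18 and -0.28 in the Lxn-/- group. Those of the resident macrophage markers were -0.08, 0.11 and -0.06 in wild type and -0.35, -0.13 and -0.30 in the Lxn-/- group. In Lxn-/- array 2 alone, 9 of 9 erythroid genes were lower. In both lists wild-type array 2 was the highest array and Lxn-/- array 2 the highest of its group.

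Neutrophil markers had higher means in 13 of 16 genes (median 0.21, and 0.13 relative to the level deciles), with the granule proteins Ctsg at 0.35, Lcn2 at 0.46 and Prtn3 at 0.25. Their summed level was 14.96 to 15.36 in wild type and 15.11 to 15.47 in the Lxn-/- group on the log2 scale. Conventional dendritic cell markers split into 7 lower and 7 higher (median -0.01), with Clec10a at 0.39, the transcription factor Zbtb46 at -0.34 and Itgax at 0.26. Of 14 plasmacytoid dendritic cell markers, the cells in which Siglech is best known, 9 were lower and 5 higher (median -0.02, and 0.08 relative to the level deciles). At an unadjusted p under 0.05 by limma, 4 of these markers were higher and 0 lower. The smallest p-values among the 14 were those of Cox6a2 at 0.48, the inhibitory receptor Lair1 at 0.27 and Tcf4. B cell markers had 5 lower and 4 higher of 9 (median -0.11), with the surrogate light chain gene Igll1 at -0.28, the adaptor Blnk at 0.46 and the recombinase Rag1 at 0.16. T and NK cell markers split 5 and 5 (median 0.01), with Ncr1 at -0.31, Nkg7 at 0.27 and Cd8b1 at 0.25. Stromal and endothelial markers had 7 lower and 3 higher of 10 (median -0.13), with the collagens Col1a2 at -0.33 and Col1a1 at -0.26 and the chemokine Cxcl12 at -0.22. Relative to the level deciles the T and NK median was 0.10 and the stromal one -0.02. At an unadjusted p under 0.05 by limma, neutrophil markers had 0 lower and 2 higher, and conventional dendritic cell markers 1 and 2. B cell markers had 1 and 1, T and NK markers 1 and 0, and stromal markers 3 and 0. Of all features 9.23% were lower and 5.06% higher at that threshold. In Lxn-/- array 2 alone the medians were 0.23 for neutrophil markers, 0.07 for conventional and -0.02 for plasmacytoid dendritic cells, 0.03 for B cells, -0.10 for T and NK cells and -0.11 for stromal and endothelial cells. None of these lists had a gene past adjustment over all features in the fit to all arrays, and the part of these cells in the members' values was not tested.

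The genes whose pattern was most like that of C1qb or Mrc1 over the 6 arrays included macrophage markers of the list above. The rule of naming only genes with a range of at least 1 on the log2 scale left none, because Mpeg1, the widest member, had a range of 0.99, so a range of 0.8 was used after the values were seen, which left 832 candidates. C1qb was closest to Axl (Pearson r = 0.976 over 6 arrays), a receptor for dying cells, then to Saa1 (0.971), an acute-phase protein, and Fcna (0.971), a ficolin of macrophages. Mrc1 was closest to Vcam1 (0.997), Apoe (0.994) and Alpk3 (0.994). Mpeg1 was closest to Pcgf1 (0.959), Rpa3 (0.956) and Mgat4a (0.947). All pairs rest on the same 6 arrays, so these values are descriptions with no test.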

How the data were processed

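From each pool of mice, 100 ng of total RNA was labelled for 1 of the 6 arrays, and groups come from the sample titles. The authors deposited log2 expression values for 35557 features, which the series text says were normalized by RMA, with Partek 6.0 named in the submitters' processing notes. The log2 scale was read from the values, 2.93 to 14.78 over the tested features. RMA aims at a common distribution of the arrays, so differences in total RNA per cell are not measured. Over the tested features the arrays still differed. Quantile normalization of these features again took those at an unadjusted limma p under 0.05 from 3346 to 1812. The small number of arrays limits the precision. The sources used here give no genome build, RMA settings or scan batches.

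Features were named through the platform's annotation, with 1 symbol for 21789, several for 1621 and none for 12147. Entrez identifiers matched 21698 of the first to the RefSeq gene table (GRCm38.p6). The 23410 features with a symbol were fitted by group in R 4.3.3 with limma 3.58.1, the package the series text names (two-sided lmFit and eBayes), and p-values were adjusted over all of them by Benjamini-Hochberg. The fit was tested on simulated data. A gene is its feature with the highest mean. All members are named, with the 3 genes of smallest p in each list, the genes most alike over the 6 arrays, and the sort, sex-check and targeted genes. Other genes of the lists with an unadjusted p under 0.05, the low markers, Spi1 and those passing when an array is left out were picked with their values in view. The members and lists were chosen with earlier results of these data known. Over all tested features same-numbered arrays did not deviate together (correlations -0.01 to 0.08), so no pairing was used in the main fit. This does not hold for every gene: in C1qb, C1qc and Mrc1 array 2 was the highest of its group in both genotypes. Alternatives were a replicate block, arrays left out, Lxn-/- array 2 alone, quantile normalization, centring, a level filter, eBayes trend, array weights, all rows of the deposited table and the mean of a gene's features. Differences relative to the deciles of level were added after seeing the data. Figures used matplotlib 3.10.9 in Python 3.11.15.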

Additional observations from a re-analysis of the deposited data

How the results depend on the processing

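No member passed an adjusted p of 0.05 in any fit, and C1qa, C1qb, Mrc1 and Mpeg1 kept their direction in every alternative run for them. With each array left out, differences ranged from -0.36 to -0.20 for C1qa, -0.64 to -0.39 for C1qb, -0.43 to -0.17 for C1qc, -0.52 to -0.26 for Mrc1 and 0.40 to 0.63 for Mpeg1. After quantile normalization again they were -0.17 for C1qa, -0.47 for C1qb, -0.16 for C1qc, -0.27 for Mrc1 and 0.46 for Mpeg1. With Lxn-/- array 2 alone, whose spread is taken from wild type, C1qc was 0.0451 and Lyz2 0.19. Members close to 0 changed sign: Fcgr1 was 0.0764 after quantile normalization, 0.0024 after centring and 0.0922 relative to its decile of level; Marco was 0.0024 and Lyz1 0.0279 relative to theirs. Lyz2 ranged from -0.16 to 0.17 with arrays left out, was 0.0122 after centring and 0.0944 with array weights. Siglech ranged from -0.0713 to 0.0097 with arrays left out, and was 0.0756 after quantile normalization, 0.0351 after centring and 0.10 relative to its decile. The cause of these turns was not tested.

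Features past an adjusted p of 0.05 numbered 0 in the fit to all arrays, 0 to 145 with an array left out (145 without Lxn-/- array 2), and 1 with the replicate block. With the replicate block 4 members had an unadjusted p under 0.05, as without it, but C1qa was no longer among them (limma adjusted p = 0.356) and C1qc was (limma adjusted p = 0.328). The block lowered the SE from 0.150 to 0.110 for C1qb, from 0.150 to 0.099 for C1qc and from 0.157 to 0.099 for Mrc1. For Lyz2 it fell from 0.181 to 0.110, and for the other members it rose. Features at an unadjusted p under 0.05 numbered 3346, against 1628 to 5541 with an array left out, 1812 after quantile normalization, 1356 above the median level (fewer features tested) and 5614 with array weights. Members at that threshold numbered 4, against 2 to 4 with an array left out (2 without wild-type array 2 and 2 without Lxn-/- array 3), and 2 each (C1qb and Mpeg1) after quantile normalization, above the median level and with all rows of the table. Resident macrophage markers lower at that threshold numbered 9, against 3 to 10 with an array left out and 5 above the median level. Monocyte markers higher numbered 4, against 4 to 7 with an array left out and 7 with array weights. The count of 7 came without Lxn-/- array 1 and with array weights, the fits with the most features at that threshold (5541 and 5614). Signal near that of olfactory receptor genes limits what C1qc, Fcgr1, Mrc1 and Marco can show.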

Other observations

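The C1q and lysozyme genes were set against their neighbours in the genome. C1qb, C1qc and C1qa are adjacent on chromosome 4. Of the flanking genes measured, Lactbl1 was -0.20 (SE 0.09) and the ephrin receptor gene Epha8 -0.22 (SE 0.11) in the Lxn-/- group, and Zbtb40, a zinc finger gene, was 0.05 (SE 0.08). Lactbl1 and Epha8 averaged 6.88 and 7.10 in wild type, under the 95th percentile of olfactory receptor genes, so their differences are those of dim features. Lyz2 and Lyz1 are adjacent on chromosome 10. Their flanking genes 9530003J23Rik, Yeats4, a chromatin reader, Cpsf6, an RNA cleavage factor, and Cpm, a carboxypeptidase, were -0.14, 0.13, 0.18 and 0.01, each with an adjusted p by limma between 0.432 and 0.937.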
